A study of Mus musculus with 24 samples.

Results

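The genes of the colony-stimulating factors and their receptors that the deposited table holds under the symbols Csf1, Csf1r, Csf2ra, Csf2rb, Csf2rb2, Csf3r and Flt3 were followed through 8 groups of sorted colon myeloid cells. They were taken by symbol and make up 7 of the 17301 genes in the table. All 7 also stood among the 12878 genes with a mean of at least 1 RPKM in at least 1 group, which were the genes tested. Flt3 entered that set through tumour monocytes alone, so that its comparisons with this group had to differ to some degree.

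RNA sequencing was done on 24 libraries, 3 for each of 4 populations sorted from the lamina propria (LP) of the colon and from colon tumours. The populations were F4/80hi MHCIIhi macrophages, F4/80hi MHCIIlow macrophages, Ly6Chi MHCII- monocytes and Ly6G+ neutrophils. LP cells came from C57BL/6J mice (C57/BL in the labels) and tumour cells from Apc Min/+ mice (APC/Min), which carry a truncating mutation of 1 Apc allele and develop intestinal adenomas. Each library was made from the pooled tissue of 13 to 15 mice, in 3 independent experiments. The study's methods state that both the Apc Min/+ mice and their C57BL/6J controls drank dextran sodium sulphate, which injures the colon epithelium, for 1 week at 6 to 8 weeks of age, the controls at the lower concentration, and were killed at 3 to 4 months. The labels call the LP tissue healthy, and which of these applies to the LP libraries was not settled. Since every LP library came from C57BL/6J mice and every tumour library from Apc Min/+ mice, tissue and genotype cannot be told apart. The p-values measure the spread between pools, not between mice.

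CSF1, also known as M-CSF, binds the receptor tyrosine kinase CSF1R and keeps monocytes and macrophages alive, including the resident macrophages of the gut. GM-CSF binds a specific alpha chain, encoded by Csf2ra, which signals through a beta chain encoded by Csf2rb that the receptors for IL-3 and IL-5 also use. Mice carry a further beta chain gene, Csf2rb2, whose product serves the IL-3 receptor only. G-CSF acts through CSF3R on neutrophils and their precursors, and FLT3 is the receptor kinase of early progenitors and of the dendritic cell lineage.

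Both beta chain genes lie side by side on chromosome 15 of GRCm38, Csf2rb (ENSMUSG00000071713.4) at chr15:78325752-78353847 on the plus strand and Csf2rb2 (ENSMUSG00000071714.5) at chr15:78282507-78305721 on the minus strand. Their coding sequences were aligned over 2631 bases, of which 2505, or 95.2%, were identical, with a longest identical run of 242 bases. Since reads were 51 bases long, the alignment was cut into 1825 windows of that length. The genes were identical in 561 of these windows, or 30.74%, and the median window held 1 mismatch. A window with the median difference and the window with the most mismatches, 12, are printed because they show what a read can and cannot tell apart between these genes. Capitals mark the mismatched bases. The median pair was read at chr15:78335216-78335266 on the plus strand for Csf2rb and at chr15:78298170-78298220 on the minus strand for Csf2rb2, and the most different pair at chr15:78338897-78338947 and chr15:78294384-78294434 on the same strands.
Csf2rb, median window: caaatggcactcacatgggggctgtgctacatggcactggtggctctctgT
Csf2rb2, median window: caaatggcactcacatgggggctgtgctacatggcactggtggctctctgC
Csf2rb, most different window: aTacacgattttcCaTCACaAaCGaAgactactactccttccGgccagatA
Csf2rb2, most different window: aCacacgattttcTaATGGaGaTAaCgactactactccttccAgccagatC

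Of the annotated transcripts, 873 stretches of 51 bases were found in both genes, which is most of the 874 of 7267 (12.03%) that Csf2rb shared with any gene and of the 896 of 4838 (18.52%) that Csf2rb2 shared. Reads from these stretches could be dropped or assigned to either gene, so levels of both genes are uncertain to that extent. No stretch of Csf1 (0 of 5327) or Csf2ra (0 of 2988) was found in another gene, and 1 of 6126 was for Flt3. Csf3r shared 376 of 3677 stretches (10.23%) with 374 other genes.

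Upstream sequences were available here from RefSeq (GRCm38.p6) for 5 of the 7 genes. They are printed for Csf1, the gene with the widest range of levels among the well measured genes, and for Csf2rb2, whose level separated LP from tumour MHCIIhi macrophages. Both stretches hold the 250 bases before the annotated start and read 5′ to 3′ along the gene. Csf1 (ENSMUSG00000014599.6, chr3:107741048-107760469, minus strand) starts after chr3:107760470-107760719, and Csf2rb2 after chr15:78305722-78305971, also on the minus strand. Capitals mark the matches in Csf1 to GGGNNNNNCC, the letters of an NF-kB site, and in Csf2rb2 to GAGGAA, the core bound by PU.1, and to TTCNNNGAA, the letters of a STAT site, with both strands searched.
Csf1: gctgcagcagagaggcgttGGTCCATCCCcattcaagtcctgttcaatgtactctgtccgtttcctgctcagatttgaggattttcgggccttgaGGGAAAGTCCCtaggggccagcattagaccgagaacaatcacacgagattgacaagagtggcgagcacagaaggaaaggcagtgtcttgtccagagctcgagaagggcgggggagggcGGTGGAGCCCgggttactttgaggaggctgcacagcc
Csf2rb2: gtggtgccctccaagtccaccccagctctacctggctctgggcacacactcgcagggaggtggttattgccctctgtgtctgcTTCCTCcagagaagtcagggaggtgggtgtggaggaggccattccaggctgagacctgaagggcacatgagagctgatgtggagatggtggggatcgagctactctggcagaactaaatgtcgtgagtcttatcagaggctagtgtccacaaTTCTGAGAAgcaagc

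In Csf1 the capitals at positions -155 to -145 are 2 overlapping matches, 1 on each strand, counted with the start base as 0. The Csf2rb2 match to TTCNNNGAA lies at -15 to -7, and its match to GAGGAA is on the opposite strand from -167 to -162. Among the 32851 regions around annotated starts in the same RefSeq table, a little longer than the stretches printed, 50.8% held GGGNNNNNCC, 28.3% GAGGAA and 8.3% TTCNNNGAA. A match describes letters in the sequence and no binding was measured.

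The authors' values are log2 RPKM, reads per kilobase of gene relative to a library size that was scaled between libraries, so that levels of different genes can be compared per length. Reads on genes ranged from 12.8 M to 41.7 M per library (M, mega). The summed level of 10 macrophage genes was 4049 to 7391 RPKM in macrophage libraries, 548 to 863 in monocytes and 443 to 636 in neutrophils. The sum of 12 neutrophil genes was 16056 to 43588 RPKM in neutrophils and at most 790 elsewhere, and Ccr2, a monocyte chemokine receptor, had a mean log2 RPKM of 6.81 in LP monocytes, 6.49 in tumour monocytes and 3.83 or less in the other groups. The list of 8 monocyte genes as a whole did not separate monocytes from neutrophils, with sums of 1168 to 1687 RPKM in LP monocytes against 1930 to 2072 in LP neutrophils and of 3416 to 4093 in tumour monocytes against 3299 to 4353 in tumour neutrophils. The LP MHCIIlow library II stood apart, with a sum of 454 RPKM over 8 monocyte genes against 136 and 144 in libraries III and IV. Ccr2, which belongs to that list, was at most 2.70 RPKM in these libraries. Bulk libraries cannot tell a lower level in each cell from fewer cells that express a gene.

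Between LP and tumour, the ligand Csf1 moved most among the well measured genes. It was 4.52-fold higher in tumour than in LP MHCIIhi macrophages and 7.29-fold higher in tumour MHCIIlow macrophages, and its receptor Csf1r was also higher in both. The beta chain genes went down in tumour MHCIIhi macrophages, whereas Csf2ra and Csf2rb went up in tumour MHCIIlow macrophages. Tests were limma's moderated test on log2 RPKM with Benjamini-Hochberg adjustment over the 12878 genes tested, and a call is an adjusted p under 0.05. In MHCIIhi macrophages, 4 of the 7 genes were called, beside 19.5% of all genes tested, 2 of them higher (8.01% of all genes) and 2 lower (11.5%). Of the 7 in MHCIIlow macrophages, 4 were called, all higher, beside 23.3% of all genes in either direction, 11.5% higher and 11.8% lower. In neutrophils 2 were called, 1 higher and 1 lower, beside 32.2% of all genes, 13.1% higher and 19% lower, and in monocytes none was called by limma, beside 9.29% of all genes, 4.86% higher and 4.43% lower. For monocytes, 1 gene (Csf1r) had an unadjusted p under 0.05 and voom called 2 (Csf1r and Flt3).

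**Figure D1:**
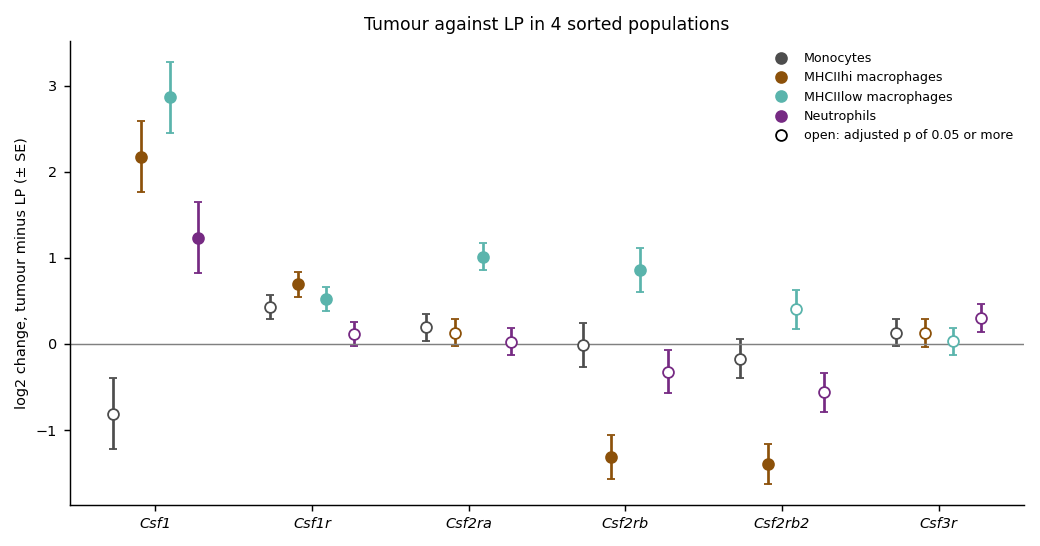
Difference between tumour and LP in log2 RPKM (y axis) for 6 of the 7 genes (x axis) in 4 sorted populations, as the limma estimate with its standard error, 3 libraries per group. Filled points have an adjusted p under 0.05. Csf1 lies above 0 in both macrophage populations and neutrophils, and Csf2rb and Csf2rb2 lie below 0 in MHCIIhi macrophages only among the called points.

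Csf1, the ligand, was low in monocytes. Its log2 RPKM was 0.36, 0.51 and 1.28 in LP monocyte libraries III, IV and V, and -1.15, 0.58 and 0.28 in tumour monocyte libraries I, II and V. LP macrophages stood at a similar level, with 1.51, 0.88 and 0.98 in MHCIIhi libraries III, IV and V and 1.17, 1.39 and 0.67 in MHCIIlow libraries II, III and IV. In contrast, all 6 tumour macrophage libraries lay above all 6 LP macrophage libraries. They held 3.91, 3.57 and 2.42 in MHCIIhi libraries I, V and VII and 3.98, 4.27 and 3.58 in MHCIIlow libraries I, V and VII. Neutrophils held the most, with 5.81, 5.36 and 4.84 in LP libraries III, IV and V and 6.53, 6.73 and 6.45 in tumour libraries I, II and V. In the order of group means, tumour neutrophils (6.57 ± 0.14, SD, n = 3) stood above LP neutrophils (5.34 ± 0.49), these above tumour MHCIIlow (3.94 ± 0.35) and MHCIIhi macrophages (3.30 ± 0.78), and the 4 remaining groups lay between -0.10 and 1.12. The ranges of the 2 tumour macrophage groups overlapped, as did those of each neighbouring pair among the 4 lowest groups.

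**Figure D2:**
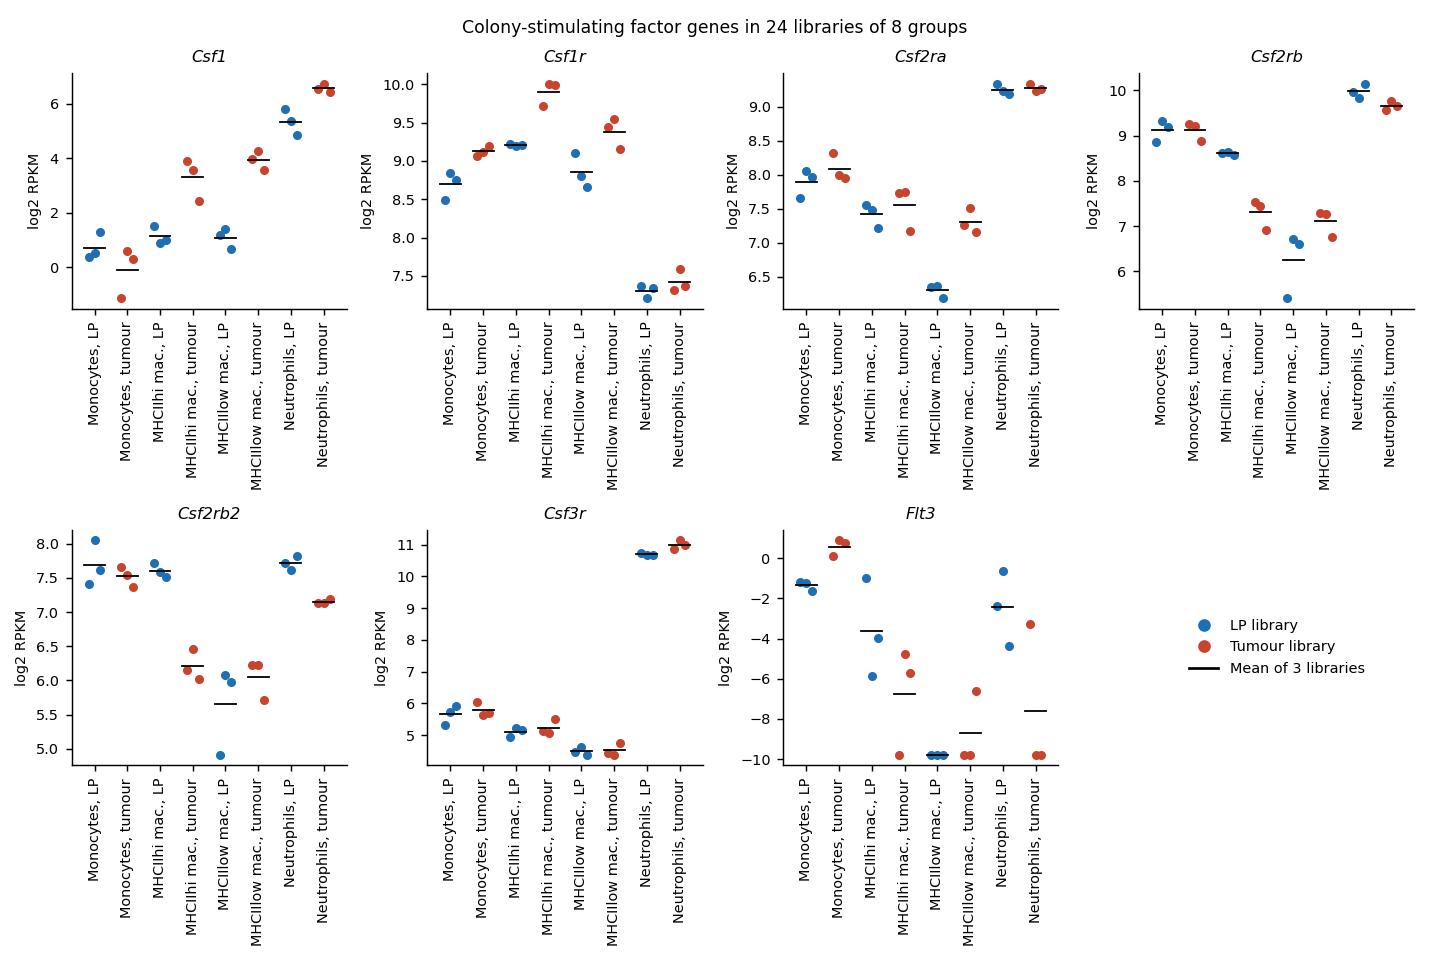
Level of each of the 7 genes in log2 RPKM (y axis, its own scale in each panel) in every library of the 8 groups (x axis), LP in blue and tumour in red, with a bar at the mean of 3 libraries. Csf1 and Csf3r are highest in neutrophils, Csf1r is lowest there, and the Flt3 points near -9.77 are libraries with 0 reads.

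For Csf1, tumour exceeded LP by 2.18 ± 0.41 on the log2 scale (SE, limma, 3 libraries per group) in MHCIIhi macrophages, with an adjusted p of 0.000747. In MHCIIlow macrophages the difference was 2.87 ± 0.41, with an adjusted p of 3.39e-05. In neutrophils Csf1 was 2.35-fold higher in tumour, by 1.23 ± 0.41 at an adjusted p of 0.0271. That call was lost without LP neutrophil library IV (0.0558) or V (0.117, difference 0.98), without tumour neutrophil library I (0.0535) or II (0.0752), and when library sizes were taken as summed reads (difference 0.77, adjusted p 0.148), within a range of 0.00189 to 0.166 over all alternatives. Between the same libraries the 12 neutrophil genes went from sums of 16056 to 22130 RPKM in the LP to 32504 to 43588 in tumour. The 8 epithelial genes went from 17.6 to 58.2 RPKM to 151 to 277, and B and plasma cell genes from 358 to 1300 to 0.66 to 20.1. The part of these genes' cells in the neutrophil Csf1 difference was not tested. In monocytes Csf1 differed by -0.81, with a 95% interval of -1.67 to 0.05. Leaving out 1 library moved this difference between -1.15 and -0.29.

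These tumour effects on Csf1 differed between populations. The effect in the mean of both macrophage groups exceeded that in monocytes by 3.33 ± 0.51 on the log2 scale, with an adjusted p of 0.000214, and Csf1 was the only 1 of the 7 genes called in this comparison, beside 9.19% of all genes. The effect in neutrophils exceeded that in monocytes by 2.05 ± 0.58 for Csf1, at an adjusted p of 0.0318, again with 1 of the 7 genes called, beside 9.11% of all genes. Leaving out LP monocyte library V (0.0862), LP neutrophil library V (0.0786), tumour monocyte library I (0.0853) or tumour neutrophil library II (0.0594) ended that last call, and its adjusted p ranged from 0.0155 to 0.141 over all alternatives. Between MHCIIlow and MHCIIhi macrophages the effects differed by 0.69, with a 95% interval of -0.53 to 1.91. These contrasts share libraries with the tumour comparisons of single populations.

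Marker genes of other cell types were read in the same libraries, since neutrophils held the most Csf1. The mean Csf1 level of tumour macrophages was 11.3% (MHCIIhi) and 16.4% (MHCIIlow) of that in tumour neutrophils. S100a8 and S100a9, the calcium-binding proteins that fill neutrophils, were at no more than 0.0603% of the neutrophil level in any macrophage group, and Ly6g had 0 reads in LP macrophages and in tumour MHCIIhi macrophages and reached 1.61 RPKM in tumour MHCIIlow macrophages, whose mean was 0.22% of the neutrophil level. Mmp9, a gelatinase of neutrophils, was at 5.99% (MHCIIhi) and 18.7% (MHCIIlow) of the neutrophil level in tumour macrophages, against 2.09% and 3.45% in the LP. The study also reported, by qPCR, higher Mmp9 in both macrophage subsets of tumours than in their LP counterparts. Over the 12 neutrophil genes the summed level was 174 to 354 RPKM in tumour MHCIIhi macrophages against 488 to 578 in the LP, and 302 to 790 in tumour MHCIIlow macrophages against 22.3 to 108. The 6 fibroblast genes summed to 0.181 to 1.17 RPKM in tumour macrophages and to 6.83 to 62.0 in LP macrophages. The 8 epithelial genes summed to 6.52 to 189 RPKM in tumour macrophages and to 5.64 to 30.2 in LP macrophages. The part of these cell types in the Csf1 difference was not tested.

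Csf1r (ENSMUSG00000024621.11, chr18:61100598-61132149, plus strand), the CSF1 receptor, was among the most abundant transcripts of every mononuclear group. In tumour MHCIIhi macrophages it held rank 33 from the top of the 12878 genes, and in LP and tumour neutrophils ranks 504 and 546. MHCIIhi macrophages held 9.22, 9.20 and 9.21 log2 RPKM in LP libraries III, IV and V and 9.71, 10.01 and 9.99 in tumour libraries I, V and VII. MHCIIlow macrophages held 9.10, 8.80 and 8.66 in LP libraries II, III and IV and 9.44, 9.54 and 9.16 in tumour libraries I, V and VII. Tumour and LP libraries did not overlap in either macrophage population, and tumour was higher. Monocytes held 8.49, 8.84 and 8.75 in LP libraries III, IV and V and 9.06, 9.12 and 9.20 in tumour libraries I, II and V, again without overlap. Neutrophils stood lowest, at 7.36, 7.21 and 7.35 in the LP and 7.31, 7.60 and 7.36 in tumour. By their means the groups ran from tumour MHCIIhi macrophages (9.90 ± 0.17, SD, n = 3) through tumour MHCIIlow, LP MHCIIhi, tumour monocytes, LP MHCIIlow and LP monocytes to tumour and LP neutrophils (7.42 ± 0.15 and 7.31 ± 0.09). Ranges of neighbours overlapped between tumour MHCIIlow and LP MHCIIhi macrophages, among tumour monocytes, LP MHCIIlow macrophages and LP monocytes, and between the neutrophil groups.

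For Csf1r the tumour difference was 1.61-fold in MHCIIhi macrophages (0.69 ± 0.14 on the log2 scale, limma, adjusted p 0.00158) and 1.44-fold in MHCIIlow macrophages (0.52 ± 0.14, adjusted p 0.0103). The MHCIIlow call was lost without LP library IV (0.0617), without tumour library V (0.0594) and when only the 6 libraries compared were fitted (0.129), in a range of 0.000225 to 0.129. In monocytes the difference was 0.43, with a 95% interval of 0.13 to 0.73, and missed the threshold at an adjusted p of 0.0644, in a range of 0.0257 to 0.25. In neutrophils it was 0.12, with a 95% interval of -0.18 to 0.41, and with library sizes as summed reads it was -0.35 (adjusted p 0.04). Hmgxb3, a gene on the opposite strand, overlaps the 3′ end of Csf1r and shared 823 of the 5775 stretches of 51 bases of Csf1r (14.25%), which the unstranded libraries cannot assign. Reads counted to Hmgxb3 came to 0.599% to 1.61% of those counted to Csf1r.

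Against monocytes of the same tissue, Csf1r was 1.43-fold higher in LP MHCIIhi macrophages (adjusted p 0.0138) and 1.71-fold higher in tumour MHCIIhi macrophages (adjusted p 0.00025). The first call was lost without LP monocyte library III (0.0752), the highest value over its alternatives, whose lowest was 0.00271. MHCIIlow macrophages and monocytes differed by 0.16 in the LP and 0.26 in tumour, with 95% intervals of -0.14 to 0.46 and -0.04 to 0.55. With library sizes as summed reads both were called, at 0.40 (adjusted p 0.0262, range 0.0262 to 0.889) and 0.67 (0.000522, range 0.000341 to 0.78). Neutrophils held 2.62-fold less Csf1r than LP monocytes (adjusted p 9.65e-08) and 3.25-fold less than tumour monocytes (adjusted p 4.61e-09), and with library sizes as summed reads these log2 differences of -1.39 and -1.70 became -2.21 and -2.84. C1qa, a complement gene of macrophages, had a mean log2 RPKM of 2.08 in LP and 2.28 in tumour neutrophils. In macrophage groups it was 9.80 to 10.53, a wider gap than that of Csf1r. The gap of Cd68 was narrower, with 131% (MHCIIhi) and 142% (MHCIIlow) of the neutrophil level in LP macrophages and 131% and 130% in tumour. For Csf1r these shares were 374% and 295% in the LP and 557% and 389% in tumour. The part of macrophages in the neutrophil Csf1r level was not tested.

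Csf2ra (ENSMUSG00000059326.6, chr19:61223957-61228429, minus strand), the alpha chain that binds GM-CSF, was highest in neutrophils and lowest in LP MHCIIlow macrophages on the deposited scale, and the size of its difference between neutrophils and monocytes, in tumour also the direction, depended on the scaling, as given with their comparison. Neutrophils held 9.33, 9.24 and 9.18 log2 RPKM in LP libraries III, IV and V and 9.34, 9.24 and 9.27 in tumour libraries I, II and V. Monocytes held 7.66, 8.06 and 7.97 in the LP and 8.32, 8.00 and 7.95 in tumour, in the same order of libraries as for Csf1. Neutrophils lay above monocytes in every library, and LP and tumour overlapped in both populations. MHCIIhi macrophages held 7.56, 7.48 and 7.22 in the LP and 7.73, 7.75 and 7.17 in tumour, whereas MHCIIlow macrophages held 6.35, 6.37 and 6.19 in the LP and 7.26, 7.52 and 7.17 in tumour. All 3 LP MHCIIlow libraries lay below each of the other 21 libraries. Ranges of neighbouring groups overlapped all the way from tumour monocytes (8.09 ± 0.20, SD, n = 3) down to tumour MHCIIlow macrophages (7.32 ± 0.18).

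Tumour MHCIIlow macrophages held 2.02-fold more Csf2ra than their LP counterparts, a difference of 1.01 ± 0.16 on the log2 scale (limma, adjusted p 7.92e-05). Between the same libraries the 12 neutrophil genes went from sums of 22.3 to 108 RPKM in the LP to 302 to 790 in tumour. Of these, Mmp9 alone went from a mean of 27.7 to 439 RPKM, and S100a8 from 2.23 to 6.95. By qPCR the study reported higher Mmp9 in both tumour macrophage subsets. The 8 monocyte genes went from sums of 136 to 454 to 16.9 to 33.7. Among them, mean Ccr2 went from 1.80 to 2.98 RPKM, with overlap, and mean Ly6c2 from 0.155 to 0.103. The part of these cell types in Csf2ra and Csf2rb was not tested. In MHCIIhi macrophages the difference was 0.13, with a 95% interval of -0.20 to 0.46, in monocytes 0.19 (-0.13 to 0.52) and in neutrophils 0.03 (-0.30 to 0.36). With library sizes as summed reads the neutrophil difference of Csf2ra became -0.44 (adjusted p 0.0118), and the median of all genes went from -0.12 to -0.57. Over the alternatives the adjusted p of Csf2ra there ran from 0.0118 to 1. The tumour effect on Csf2ra in MHCIIlow macrophages exceeded that in MHCIIhi macrophages by 0.88 ± 0.22, at an adjusted p of 0.0519. It passed the threshold in 11 of 23 alternatives, between 0.0188 and 0.151, among them the replicate block as a random (0.0419) and as a fixed term (0.0491).

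Csf2rb, the beta chain gene that GM-CSF, IL-3 and IL-5 share, was higher in neutrophils and monocytes than in macrophages on the deposited scale, and the order of neutrophils and monocytes turned under other scalings, as given with their comparison. Neutrophils held 9.96, 9.84 and 10.14 log2 RPKM in the LP and 9.57, 9.77 and 9.66 in tumour, and monocytes held 8.86, 9.33 and 9.19 in the LP and 9.27, 9.20 and 8.89 in tumour. In the LP, MHCIIhi macrophages held 8.63, 8.65 and 8.58, close to monocytes, while MHCIIlow macrophages held 5.41, 6.72 and 6.61. The tumour populations had no such gap, with 7.54, 7.46 and 6.92 in MHCIIhi and 7.29, 7.26 and 6.77 in MHCIIlow macrophages. All 6 tumour macrophage libraries thus lay between the LP MHCIIhi and the LP MHCIIlow libraries. The lowest value, 5.41, was that of LP MHCIIlow library II, in which the 8 monocyte genes were at their highest among LP macrophages, with 454 RPKM against 61.7 to 144 in the other 5 libraries. By their means the groups ran from LP neutrophils (9.98 ± 0.15, SD, n = 3) and tumour neutrophils (9.66 ± 0.10) to tumour MHCIIhi (7.31 ± 0.34), tumour MHCIIlow (7.11 ± 0.29) and LP MHCIIlow macrophages (6.24 ± 0.73), and only the 2 monocyte groups and the 2 tumour macrophage groups overlapped as neighbours.

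Its neighbour Csf2rb2 was lower than Csf2rb in every library. The LP MHCIIhi libraries held 7.72, 7.58 and 7.51 log2 RPKM and the tumour MHCIIhi libraries 6.15, 6.46 and 6.02. The LP MHCIIlow libraries held 4.91, 6.07 and 5.97 and the tumour MHCIIlow libraries 6.23, 6.22 and 5.71, which overlapped. Monocytes held 7.41, 8.05 and 7.61 in the LP and 7.66, 7.55 and 7.36 in tumour, and neutrophils 7.72, 7.61 and 7.82 in the LP and 7.13, 7.13 and 7.20 in tumour. On the deposited scale it did not set neutrophils apart: LP neutrophils (7.72 ± 0.10, SD, n = 3), LP monocytes, LP MHCIIhi macrophages and tumour monocytes (7.52 ± 0.15) overlapped as neighbours. LP neutrophils and monocytes differed by 0.03 (-0.45 to 0.51), but with library sizes as summed reads by -0.80 (limma, adjusted p 0.00382) and under quantile normalization by -0.97 (0.00222), in a range of 0.00222 to 0.979. Tumour neutrophils followed at 7.15 ± 0.04, and the 3 groups of tumour MHCIIhi, tumour MHCIIlow and LP MHCIIlow macrophages overlapped at the bottom.

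In MHCIIhi macrophages tumour lay below LP by 1.31 ± 0.26 for Csf2rb (2.48-fold lower, limma, adjusted p 0.000933) and by 1.39 ± 0.23 for Csf2rb2 (2.63-fold lower, adjusted p 0.000192). Between the same libraries the 8 monocyte genes went from sums of 61.7 to 68.5 RPKM in the LP to 15.3 to 18.6 in tumour. The 11 dendritic cell genes other than Flt3 went from 60.5 to 81.9 to 10.2 to 21.8, but this list summed to 700 to 955 in neutrophils. The 12 neutrophil genes went from sums of 488 to 578 to 174 to 354. Of these, Mmp9 rose from a mean of 16.8 to 141 RPKM. S100a8, S100a9, Retnlg and Cxcr2 overlapped between the groups, and Ly6g had no reads in either. The part of these cell types in the beta chain levels was not tested. In MHCIIlow macrophages Csf2rb was 1.82-fold higher in tumour (0.86 ± 0.26, adjusted p 0.0176) and Csf2rb2 differed by 0.40, with a 95% interval of -0.08 to 0.88. Leaving out 1 library moved this Csf2rb2 difference between 0.03 and 0.61. The Csf2rb call in MHCIIlow macrophages was lost without LP library II (difference 0.44, adjusted p 0.13), without tumour library I (0.0672) or V (0.0714) and when only the 6 libraries compared were fitted (0.185), in a range of 0.00551 to 0.185. In monocytes the differences were -0.01 for Csf2rb and -0.17 for Csf2rb2, with 95% intervals of -0.54 to 0.52 and -0.65 to 0.31. In neutrophils Csf2rb differed by -0.32 (-0.85 to 0.21). Csf2rb2 differed there by -0.56 (-1.04 to -0.08), at an adjusted p of 0.0675 that missed the threshold although no tumour library reached an LP library. With library sizes as summed reads both were called lower in tumour neutrophils, Csf2rb by -0.79 (adjusted p 0.0133) and Csf2rb2 by -1.03 (adjusted p 0.000954), and over all alternatives the adjusted p ran up to 0.854 and 0.313.

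The tumour effect in MHCIIlow macrophages differed from that in MHCIIhi macrophages by 2.17 ± 0.36 on the log2 scale for Csf2rb (limma, adjusted p 0.00422) and by 1.79 ± 0.33 for Csf2rb2 (adjusted p 0.00927). These were the 2 of the 7 genes called for this difference, beside 1.46% of all genes tested. Each was called in 22 of 23 alternatives and lost when only the 12 macrophage libraries were fitted, at adjusted p of 0.0724 for Csf2rb and 0.0835 for Csf2rb2, with lowest values of 0.00055 and 0.00221.

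In the LP itself, Csf2rb was 5.19-fold lower in MHCIIlow than in MHCIIhi macrophages (-2.37 ± 0.26, limma, adjusted p 1.09e-05), Csf2rb2 was 3.86-fold lower (adjusted p 2.96e-05) and Csf2ra 2.17-fold lower (-1.12 ± 0.16, adjusted p 0.000139). Csf3r and Flt3 were called lower as well, which made 5 of the 7 genes, beside 7.7% of all genes. Between the same LP libraries the 12 neutrophil genes summed to 22.3 to 108 RPKM in MHCIIlow against 488 to 578 in MHCIIhi macrophages. Of that list, S100a8, S100a9, Retnlg, Cxcr2 and Mmp9 overlapped between these groups and Ly6g had no reads in either. Mean S100a8 was 2.23 RPKM in MHCIIlow and 1.12 in MHCIIhi macrophages, and mean Mmp9 27.7 and 16.8. The 11 dendritic cell genes other than Flt3 summed to at most 33.4 RPKM against at least 60.5. That list summed to 700 to 955 RPKM in neutrophils, so it does not single out dendritic cells here. The sum of the 8 monocyte genes went the other way, with 136 to 454 RPKM against 61.7 to 68.5. Within that list Ccr2 and Ly6c2 were lower in LP MHCIIlow than in LP MHCIIhi macrophages, without overlap. Mean Ccr2 was 1.80 RPKM in MHCIIlow and 14.2 in MHCIIhi macrophages, and mean Ly6c2 0.155 and 0.418. The part of these cell types in the 5 lower genes was not tested. In tumours only 1 of the 7 was called between MHCIIlow and MHCIIhi macrophages, Csf3r, beside 1.13% of all genes. Csf2rb and Csf2rb2 differed there by -0.20 (-0.73 to 0.33) and -0.15 (-0.63 to 0.33). Csf1 differed between MHCIIlow and MHCIIhi macrophages by -0.05 in the LP (-0.91 to 0.81) and 0.64 in tumour (-0.22 to 1.5). For Csf1r the differences were -0.35 in the LP (adjusted p 0.153) and -0.52 in tumour (adjusted p 0.0853), and with the donor number as a block the tumour difference passed at 0.0484, within ranges of 0.0276 to 0.721 and 0.0255 to 0.503.

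Between macrophages and monocytes, the receptor genes other than Csf1r were mostly lower in macrophages. LP MHCIIhi macrophages had 3 of the 7 genes called, beside 20.1% of all genes, and tumour MHCIIhi macrophages all 7, beside 32.1%. LP MHCIIlow macrophages had 5 called, all lower, beside 29.5%, and tumour MHCIIlow macrophages 6, beside 32%. Both tumour counts include Flt3, which was tested only because it is high in tumour monocytes, and leave 6 and 5 of the other 6 genes without it. Csf2rb was 7.38-fold lower in LP MHCIIlow macrophages than in LP monocytes (adjusted p 5.16e-08), 3.52-fold lower in tumour MHCIIhi macrophages (adjusted p 1.21e-05) and 4.04-fold lower in tumour MHCIIlow macrophages (adjusted p 3.65e-06). In LP MHCIIhi macrophages it differed by -0.51 (-1.04 to 0.02), which was called with the donor number as a block (adjusted p 0.0101, range 0.0101 to 0.395). Csf2rb2 was lower by 1.31 to 2.04 on the log2 scale in the same 3 comparisons that called Csf2rb, with adjusted p of 0.000153 or less.

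Csf2ra was lower than in monocytes of the same tissue in each macrophage group, by 0.47 and 1.59 on the log2 scale in LP MHCIIhi and MHCIIlow macrophages and by 0.54 and 0.78 in their tumour counterparts. The LP MHCIIhi call for Csf2ra (adjusted p 0.0391, range 0.0118 to 0.171) was lost without LP MHCIIhi library IV (0.0711) or V (0.171) and without LP monocyte library IV (0.149) or V (0.113). The tumour MHCIIhi call (0.0122, range 0.00273 to 0.714) was lost without tumour MHCIIhi library VII (0.0959), without tumour monocyte library I (0.077) and with the donor number as a fixed block (0.0527), and shrank to -0.26 (0.135) with library sizes as summed reads and -0.08 (0.714) under quantile normalization. The tumour MHCIIlow difference shrank to -0.36 with summed reads and to -0.24 under quantile normalization, where its call was lost (0.187, range 0.00011 to 0.187). For Csf1, tumour macrophages were 10.5-fold (MHCIIhi) and 16.4-fold (MHCIIlow) above tumour monocytes, with adjusted p of 1.93e-06 and 2.21e-07, while in the LP the differences were 0.41 and 0.36 on the log2 scale, with intervals reaching below 0.

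Neutrophils differed from monocytes in 5 of the 7 genes in the LP, beside 54.5% of all genes, and in 5 in tumour, beside 58.1%, of which 4 remain without Flt3. Csf1 was 24.6-fold higher in LP neutrophils than in LP monocytes (limma, adjusted p 1.48e-08) and 102-fold higher in tumour neutrophils than in tumour monocytes (adjusted p 7.22e-11). With library sizes as summed reads these log2 differences of 4.62 and 6.67 became 3.80 and 5.53. Csf2ra was 2.56-fold higher in LP neutrophils (adjusted p 5.09e-07) and 2.28-fold higher in tumour neutrophils (adjusted p 2.23e-06), and Csf2rb 1.81-fold higher in LP neutrophils (adjusted p 0.008). With library sizes as summed reads the median of all genes went from -0.24 to -1.05 in the LP and from -0.36 to -1.45 in tumour. The LP Csf2ra difference of 1.36 then became 0.53 and was still called (adjusted p 0.00168), whereas under quantile normalization it was 0.09 and was not (adjusted p 0.598). The directions of Csf2ra in tumour and Csf2rb in the LP rested on the scaling, with 0.06 and 0.03 for library sizes as summed reads and -0.19 and -0.59 under quantile normalization. The Csf2rb difference in tumour was 0.54 (adjusted p 0.0755, range 0.00202 to 0.222) and that of Csf2rb2 -0.37 (0.179, range 5.03e-06 to 0.794), and both were called with the donor number as a block, at 0.00202 and 0.0482. For Csf2rb this direction also rested on the scaling, with -0.59 (0.0363) for library sizes as summed reads and -0.98 (0.00522) under quantile normalization. The tumour Csf2rb2 difference became -1.50 (5.03e-06) and -1.32 (0.000126) under these scalings and 0.08 with median centring, and that in the LP, 0.03 (adjusted p 0.937), became -0.80 (0.00382) and -0.97 (0.00222).

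Csf3r (ENSMUSG00000028859.10, chr4:126024550-126044440, plus strand), the G-CSF receptor, marked neutrophils. They held 10.74, 10.68 and 10.68 log2 RPKM in the LP and 10.87, 11.14 and 10.99 in tumour, which placed it at ranks 49 and 68 from the top of the 12878 genes. Monocytes held 5.32, 5.74 and 5.92 in the LP and 6.04, 5.62 and 5.71 in tumour. MHCIIhi macrophages held 4.95, 5.21 and 5.16 in the LP and 5.12, 5.07 and 5.52 in tumour, and MHCIIlow macrophages 4.47, 4.64 and 4.39 in the LP and 4.43, 4.39 and 4.76 in tumour. Each MHCIIlow library lay below every MHCIIhi and monocyte library, while LP and tumour overlapped in monocytes and in both macrophage populations. Neutrophils lay 32.9-fold above LP monocytes (5.04 ± 0.16, limma, adjusted p 1.52e-14) and 37.0-fold above tumour monocytes (5.21 ± 0.16, adjusted p 1.16e-14), and remained called under every alternative, with lower log2 differences of 4.21 and 4.08 for library sizes as summed reads and 4.03 and 3.59 under quantile normalization.

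No population had a called tumour difference in Csf3r. It was 0.30 in neutrophils, with a 95% interval of -0.03 to 0.63 and no overlap of libraries, and turned to -0.17 for library sizes as summed reads and -0.33 under quantile normalization, while median centring called it at 0.54 (adjusted p 0.0197, range 0.0197 to 0.477). It was 0.13, 0.13 and 0.03 in monocytes, MHCIIhi and MHCIIlow macrophages. MHCIIlow macrophages held 1.52-fold less Csf3r than MHCIIhi macrophages in the LP (-0.61 ± 0.16, adjusted p 0.0225) and 1.63-fold less in tumour (-0.71 ± 0.16, adjusted p 0.037). The LP call was lost without LP MHCIIhi library IV (0.097) or V (0.0754), without LP MHCIIlow library II (0.0711) or IV (0.0909) and with the donor number as a fixed block (0.0787), in a range of 0.00412 to 0.220. It was also lost under quantile normalization (-0.55, 0.0532) and shrank to -0.36 (0.220) with library sizes as summed reads. The tumour call was lost without tumour MHCIIhi library I (0.0563) or VII (0.168) and without tumour MHCIIlow library I (0.083) or V (0.149), in a range of 0.0209 to 0.275. Library sizes as summed reads (-0.57, 0.106) and a fit of only the libraries compared (0.275) ended it too.

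Relative to monocytes Csf3r was 1.47-fold lower in MHCIIhi macrophages of both tissues (adjusted p 0.0181 in the LP and 0.0109 in tumour) and 2.24-fold and 2.40-fold lower in LP and tumour MHCIIlow macrophages (1.43e-05 and 3.58e-06). The LP MHCIIhi call was lost without LP MHCIIhi library III (0.0843) or without LP monocyte library IV (0.0624) or V (0.104), and the tumour MHCIIhi call without tumour MHCIIhi library V (0.0555) or tumour monocyte library I (0.0747), with ranges of 0.00389 to 0.141 and 0.00155 to 0.328. Quantile normalization also ended both, at -0.37 (0.141) in the LP and -0.24 (0.328) in tumour, as did library sizes as summed reads in tumour (-0.28, 0.225). As a share of the neutrophil level of the same tissue, Csf3r was 3.08% in LP and 2.72% in tumour monocytes, 2.08% in LP and 1.85% in tumour MHCIIhi macrophages, and 1.36% in LP and 1.13% in tumour MHCIIlow macrophages. S100a8 stood at 0.0196% to 0.0603% of the neutrophil level in the macrophage groups and at 0.257% (LP) and 0.334% (tumour) in monocytes. Mmp9 stood at 2.09% to 18.7% in the macrophage groups and at 0.244% and 0.317% in LP and tumour monocytes. The part of neutrophils in these Csf3r levels was not tested.

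Flt3 (ENSMUSG00000042817.13, chr5:147330741-147400489, minus strand) had at most 408 reads in any library and is given in reads. Tumour monocytes held 250, 408 and 337 reads in libraries I, II and V, or 1.08, 1.86 and 1.68 RPKM, and LP monocytes 87, 144 and 90 reads in libraries III, IV and V, or 0.447, 0.422 and 0.32 RPKM. The monocyte groups did not overlap, but limma's difference of 1.93 ± 1.69 on the log2 scale had an adjusted p of 0.567, with 1 spread estimated over all 8 groups, of which 4 hold libraries with 0 reads. The call was made in 3 of 15 alternatives, and the adjusted p ran from 0.00271 to 0.711. LP MHCIIhi macrophages held 162, 6 and 15 reads and tumour MHCIIhi macrophages 0, 12 and 4, so that LP library III, at 0.508 RPKM, alone carried most of the signal. LP MHCIIlow macrophages had 0 reads in all 3 libraries and tumour MHCIIlow macrophages 0, 0 and 2. Neutrophils held 36, 67 and 8 reads in the LP, or 0.195, 0.644 and 0.0491 RPKM, and 10, 0 and 0 in tumour. Per length and library size, LP neutrophil library IV and LP MHCIIhi library III thus lay above all 3 LP monocyte libraries. Except for tumour above LP monocytes, every neighbouring pair of groups in the order of levels overlapped.

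Counted against a floor of 3 reads per library, Flt3 was at least 12.0-fold lower in LP MHCIIlow than in LP MHCIIhi macrophages (limma, adjusted p 0.0281), and at least 2.45-fold lower without LP MHCIIhi library III. This call was lost without LP MHCIIhi library III (0.157) or V (0.0654), without LP MHCIIlow library II (0.0789), III (0.0574) or IV (0.0748), with the donor number as a fixed block (0.0939) and on the log2(RPKM + 1) scale (0.442), the highest value, against a lowest of 0.00828. It was at least 24.2-fold lower in LP MHCIIlow macrophages than in LP monocytes. Against tumour monocytes, through which Flt3 entered the test, its differences are a description, with at least 124-fold less in tumour MHCIIlow macrophages. In neutrophils the call between tumour and LP (adjusted p 0.0242, range 0.00181 to 0.208) came with overlapping groups. It was lost without LP neutrophil library III (0.056) or IV (0.0964) and without tumour neutrophil library II (0.109) or V (0.106). The 11 dendritic cell genes other than Flt3 summed to 71.9 to 119 RPKM in LP and 85.7 to 102 in tumour monocytes, but to 700 to 955 in neutrophils, so that the list does not single out dendritic cells here, and their part in the Flt3 level was not tested.

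The balance between these genes can be read within each library, where the scaling of library sizes drops out. Csf1r lay above Csf2rb by 0.55 to 0.62 log2 RPKM in the 3 LP MHCIIhi libraries and by 2.17 to 3.07 in the 3 tumour MHCIIhi libraries. LP MHCIIlow macrophages were already at 3.69, 2.09 and 2.05, and tumour MHCIIlow macrophages had a mean of 2.28. In monocytes both genes were nearly level, with mean differences of -0.43 in the LP and 0.01 in tumour, and in neutrophils Csf2rb led by 2.68 and 2.24. LP MHCIIhi macrophages thus lay between monocytes and the other macrophage groups, with no overlap with either.

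**Figure D3:**
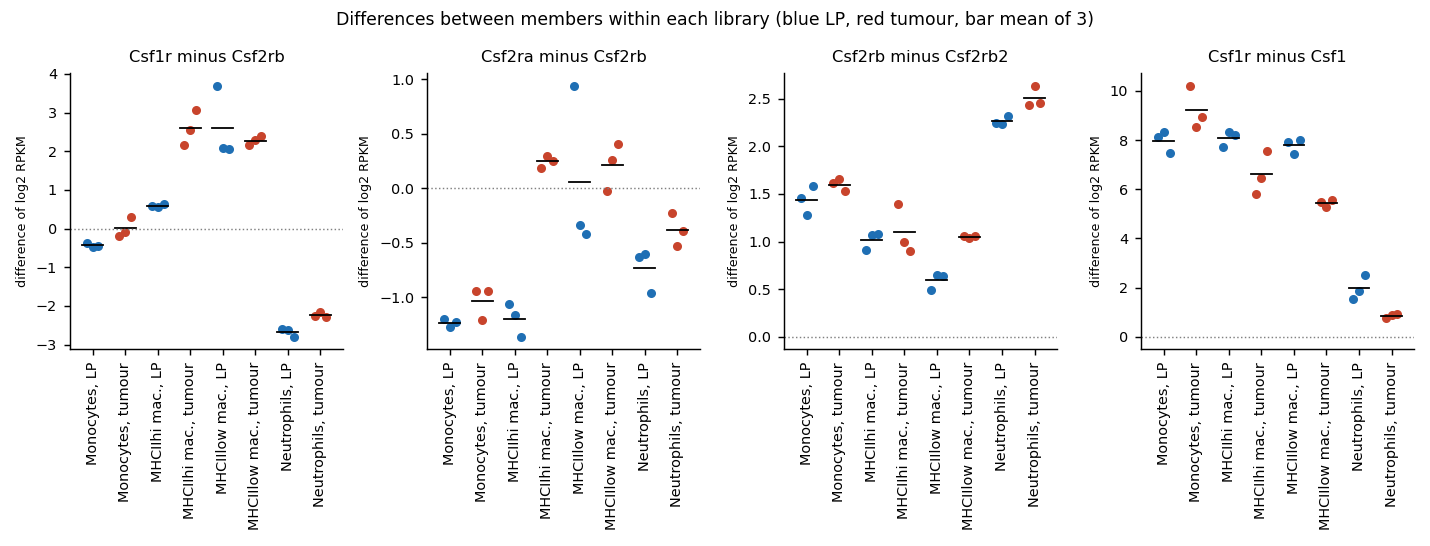
Difference in log2 RPKM between pairs of the genes within each library (y axis) in the 8 groups (x axis), LP in blue, tumour in red, with a bar at the mean of 3 libraries. The 3 LP MHCIIhi libraries lie at 0.55 to 0.62 for Csf1r minus Csf2rb and the 3 tumour MHCIIhi libraries at 2.17 to 3.07.

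Csf2ra lay below Csf2rb by a mean of 1.20 log2 RPKM in LP MHCIIhi macrophages, by 1.23 in LP monocytes and by 1.03 in tumour monocytes. In tumour macrophages both chains were about level, with Csf2ra above by 0.25 in MHCIIhi and 0.21 in MHCIIlow macrophages, and LP MHCIIlow libraries II, III and IV held 0.94, -0.34 and -0.42. Csf2rb exceeded Csf2rb2 in each library, by means of 2.27 (LP) and 2.51 (tumour) in neutrophils, 1.44 and 1.60 in monocytes, 1.02 and 1.10 in MHCIIhi macrophages and 0.59 and 1.05 in MHCIIlow macrophages, although reads from the shared stretches can pull the genes together. The gap from Csf1r down to its ligand Csf1 was 8.09 in LP MHCIIhi and 7.78 in LP MHCIIlow macrophages, 6.60 and 5.44 in their tumour counterparts, 7.98 (LP) and 9.22 (tumour) in monocytes, and 1.97 (LP) and 0.85 (tumour) in neutrophils. Csf1r minus Csf3r was negative in neutrophils (-3.39 in the LP and -3.58 in tumour) and positive in every other library.

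Over the 8 group means, Csf2rb and Csf2rb2 had the highest correlation among the 7 genes (Pearson's r 0.923), Csf3r went with Csf2ra (r 0.915) and against Csf1r (r -0.913), and Csf2rb2 with Csf1 had an r of -0.05. These are descriptions over 8 points that share the pools of mice. Among 5268 genes with a group mean of at least 10 RPKM, the profile most like that of Csf1 was Aldh3a2 (r 0.983), a fatty aldehyde dehydrogenase, followed by Mmp9, a gelatinase, and Plk2, a polo-like kinase. Csf1r was most like Adcy7 (r 0.995), an adenylate cyclase, and then Cyp27a1 and Mbnl1. Csf2ra was most like Mirt1 (r 0.996), Il1bos and Thap6, and Csf3r like Selenon (r 0.998), Hcst, which encodes the adaptor DAP10, and Snap23. Csf2rb was most like Smchd1 (r 0.972), Srpr and Fam53c, and Csf2rb2 like Cytip (r 0.979), with Kdm5c also near the top. Flt3 was most like Uck2 (r 0.962), Api5 and Sla.

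Related ligands and receptors were read from a list of 13 genes, of which 8 are in the table and 6 were tested. Csf3, the G-CSF gene, was highest in neutrophils, the cells with the most Csf3r. Its log2 RPKM was 5.24, 5.61 and 5.00 in LP and 8.61, 7.97 and 8.24 in tumour neutrophils, against 2.68, 4.23 and 2.98 in LP and 5.10, 4.55 and 4.91 in tumour monocytes. Tumour lay above LP in both populations without overlap, but the monocyte difference was not called by limma. LP MHCIIhi macrophages held 1.58, 1.24 and 1.62 and tumour MHCIIhi macrophages 55, 14 and 0 reads, or 0.51, -2.12 and -7.32. MHCIIlow macrophages held 3.91, 1.69 and 2.36 in the LP and 1.99, 2.03 and 1.02 in tumour, and overlapped. The neutrophil difference of Csf3, 2.99 ± 1.12 (limma, adjusted p 0.0476, range 5.82e-07 to 0.109), was lost without any 1 of the 6 libraries, at 0.095, 0.0731 and 0.108 for LP libraries III, IV and V and 0.109, 0.0751 and 0.0874 for tumour libraries I, II and V. It was also lost with the donor number as a random block (0.0529) and called in only 5 of 16 alternatives. The MHCIIhi call (-4.46 ± 1.12, adjusted p 0.00753, range 9.87e-05 to 0.170) kept its side of the threshold without each library, at -6.20 without tumour library I and -2.28 without VII, and was lost when only the 6 libraries compared were fitted.

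Kitl, the ligand of the receptor KIT, was lower in tumour macrophages. LP MHCIIlow libraries held 4.62, 2.73 and 3.33 log2 RPKM and tumour MHCIIlow libraries -0.28, -2.87 and -3.50, and LP MHCIIhi libraries held 1.18, 1.87 and 1.82 against 95, 50 and 0 reads in tumour MHCIIhi libraries I, V and VII. The differences were -5.78 ± 1.73 in MHCIIlow (limma, adjusted p 0.0185, range 2.79e-07 to 0.0755) and -5.76 ± 1.73 in MHCIIhi macrophages (0.0222, range 0.000714 to 0.166). Without LP MHCIIlow library II (0.071) or tumour MHCIIlow library V (0.0637) or VII (0.0755) the first was lost, and without LP MHCIIhi library IV (0.0645) or V (0.0631) or tumour MHCIIhi library VII (difference -3.16, adjusted p 0.166) the other. Without tumour library I they moved to -6.74 in MHCIIlow and -7.47 in MHCIIhi macrophages, and without tumour MHCIIhi library V to -6.66. The 6 fibroblast genes fell alongside, from 6.83 to 62.0 RPKM in LP macrophages to 0.181 to 1.17 in tumour macrophages, and their part in Kitl was not tested. In neutrophils Kitl went from 14, 18 and 0 reads in the LP to -0.44, 0.36 and -0.07 log2 RPKM in tumour (4.85 ± 1.73, adjusted p 0.0367, range 0.0153 to 0.239). That call was lost without LP library V (2.63, adjusted p 0.239) or any tumour library (I 0.0616, II 0.0858, V 0.0712). The difference became 5.67 without LP library III and 6.26 without IV. Between these neutrophil libraries the 8 epithelial genes went from sums of 17.6 to 58.2 RPKM in the LP to 151 to 277 in tumour. Their part in Kitl was not tested.

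**Figure D4:**
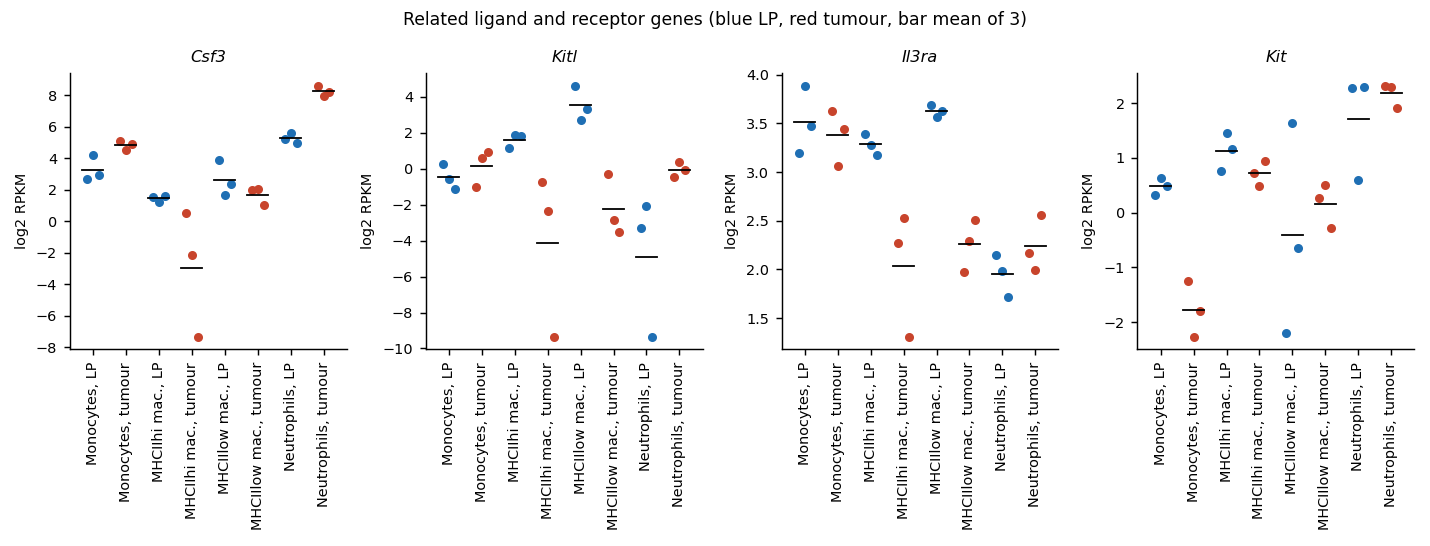
Level of Csf3, Kitl, Il3ra and Kit in log2 RPKM (y axis, its own scale in each panel) in every library of the 8 groups (x axis), LP in blue, tumour in red, with a bar at the mean of 3 libraries. Csf3 is highest in tumour neutrophils, at 7.97 to 8.61, and the 3 tumour MHCIIlow libraries lie below the 3 LP MHCIIlow libraries for Kitl and Il3ra.

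Il3ra, the alpha chain that pairs with the beta chains to bind IL-3, was 2.58-fold lower in tumour MHCIIlow macrophages (-1.37 ± 0.26, limma, adjusted p 0.000657), with 3.69, 3.57 and 3.63 log2 RPKM in the LP and 1.97, 2.3 and 2.51 in tumour. Its difference in MHCIIhi macrophages was -1.25 ± 0.26 (adjusted p 0.00194, range 0.000701 to 0.0526), a call lost when only the 6 libraries compared were fitted. Kit was lower in tumour than in LP monocytes, with 0.31, 0.63 and 0.49 in the LP and -1.25, -2.27 and -1.80 in tumour (-2.25 ± 0.65, adjusted p 0.0334, range 0.00642 to 0.119). That call was lost without LP monocyte library III (0.0723), IV (0.083) or V (0.0862) and without tumour monocyte library II (0.119) or V (0.0787). Il5, the eosinophil growth factor, had 52, 70 and 87 reads in LP monocytes and 0 in each tumour monocyte library, at least 18.9-fold lower. Il5 reached a mean of 1 RPKM in LP monocytes alone and so entered the test through the group where it was high, and this comparison is given as a description. Epor, the erythropoietin receptor, was the only other gene of the 6 and was not called in any population, with reads of 364, 70 and 66 in LP and 30, 134 and 52 in tumour MHCIIlow macrophages. Il34, a further ligand of CSF1R, had at most 26 reads in any library and Thpo, the thrombopoietin gene, at most 28, and neither was tested. B and plasma cell genes summed to 157 to 575 RPKM in LP monocytes and to 0.192 to 4.68 in tumour monocytes, and their part in Kit and Il5 was not tested. In neutrophils the Il5 call (adjusted p 0.0178, range 0.00174 to 0.106) was lost without tumour library II (0.083) or V (0.081), and its difference moved from -5.06 to -6.99 without tumour library I. The B and plasma cell genes summed to 358 to 1300 RPKM in LP and to 0.66 to 20.1 in tumour neutrophils. Their part in this Il5 difference was not tested. Of the 6 genes tested, 0 were called higher and 3 lower in MHCIIhi macrophages, 0 and 2 in MHCIIlow macrophages, 0 and 2 in monocytes, Il5 among them, and 2 and 1 in neutrophils. The shares of all genes called higher and lower were 8.01% and 11.5%, 11.5% and 11.8%, 4.86% and 4.43%, and 13.1% and 19% in that order of populations. Median differences of the 6 genes were -1.57, -1.36, -0.15 and 0.37 beside 0, 0.06, 0 and -0.12 over all genes.

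The transducers that carry receptor signals changed in both directions. Of 34 listed genes, 10 were higher and 8 lower in tumour in MHCIIhi macrophages, 10 and 5 in MHCIIlow macrophages, 6 and 1 in monocytes and 7 and 5 in neutrophils, beside 8.01% and 11.5%, 11.5% and 11.8%, 4.86% and 4.43%, and 13.1% and 19% of all genes. Median differences were 0.10, 0.20, 0.10 and 0.13, beside 0, 0.06, 0 and -0.12 over all genes. Stat5a, which is activated by the GM-CSF and IL-3 receptors, was lower in tumour in all 4 populations, by 2.50 ± 0.27, 2.83 ± 0.27, 1.05 ± 0.27 and 1.29 ± 0.27 on the log2 scale (limma, adjusted p 1.38e-06, 2.84e-07, 0.0162 and 0.00103). The monocyte call of Stat5a was lost without LP monocyte library IV (0.057) or V (0.0775) or tumour monocyte library I (0.0791), in a range of 0.0052 to 0.0791. Pik3r5, a regulatory subunit of PI3K gamma, was lower by 1.98 ± 0.20 and 2.10 ± 0.20 in tumour MHCIIhi and MHCIIlow macrophages. Ptpn6, the phosphatase SHP-1, was higher by 1.66 ± 0.20 and 2.05 ± 0.20 there. Gab3, an adaptor that acts downstream of CSF1R, was higher by 2.80 ± 0.45 in MHCIIhi macrophages, by 1.58 ± 0.45 in MHCIIlow macrophages and by 1.77 ± 0.45 in monocytes. Its MHCIIlow call (0.0142, range 0.0017 to 0.0635) was lost without LP MHCIIlow library IV (0.054) or tumour MHCIIlow library I (0.0635), and its monocyte call (0.016, range 0.00659 to 0.123) without LP monocyte library IV (difference 1.30, adjusted p 0.0874) or tumour monocyte library V (0.0845). Tyk2, a Janus kinase, was higher in tumour monocytes by 1.03 ± 0.19, and in neutrophils Plcg2 and Mapk3, which encodes ERK1, were higher by 1.94 ± 0.20 and 1.45 ± 0.27 and Akt1 lower by 1.22 ± 0.20.

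Of 24 feedback genes and targets of STAT5 or ERK, 5 were higher and 4 lower in tumour in MHCIIhi macrophages, 3 and 7 in MHCIIlow macrophages, 4 and 1 in monocytes and 5 and 6 in neutrophils, where 19.5%, 23.3%, 9.29% and 32.2% of all genes were called in either direction. Medians were -0.16, -0.11, -0.04 and -0.46, beside 0, 0.06, 0 and -0.12 over all genes. Osm, the cytokine oncostatin M and a STAT5 target, was higher in tumour in all 4 populations, by 2.01 ± 0.23 in MHCIIhi macrophages, 1.57 ± 0.23 in MHCIIlow macrophages, 1.94 ± 0.23 in monocytes and 2.69 ± 0.23 in neutrophils, with adjusted p of 4.21e-05 or less by limma. Spry2, an inhibitor of receptor tyrosine kinase signalling, was lower by 2.42 ± 0.47 and 3.54 ± 0.47 in MHCIIhi and MHCIIlow macrophages, the first call being lost on the log2(RPKM + 1) scale. Socs1, which inhibits Janus kinases, was lower by 2.04 ± 0.36 in MHCIIhi macrophages and 2.42 ± 0.36 in neutrophils, while Socs2 was higher by 2.53 ± 0.61 in MHCIIlow macrophages and Spred1 lower by 2.25 ± 0.41. The immediate early gene Egr1 was higher by 1.28 ± 0.39 in MHCIIhi macrophages (adjusted p 0.0224, range 0.00709 to 0.114), a call lost without LP MHCIIhi library III (0.0766) or V (0.114) or tumour MHCIIhi library I (0.0769) or VII (0.0734). In monocytes Etv5 was higher by 1.18 ± 0.20 and Myc lower by 2.22 ± 0.44. The Myc call (limma, adjusted p 0.00259, range 0.00077 to 0.0731) was lost when only the libraries compared were fitted. In neutrophils the kinase genes Pim1 and Pim2 moved apart, by 1.40 ± 0.22 and -2.31 ± 0.50.

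Proteases that process CSF1 or shed its receptor were covered by 4 genes. Adam10 was higher in tumour by 0.95 ± 0.17 in MHCIIhi macrophages, 1.09 ± 0.17 in MHCIIlow macrophages and 0.65 ± 0.17 in neutrophils, the last of which was lost with library sizes as summed reads (adjusted p 0.480, range 0.000513 to 0.480). Furin was lower by 2.15 ± 0.25, 1.54 ± 0.25 and 0.82 ± 0.25 in the same populations (limma, adjusted p 3.83e-06, 0.000128 and 0.016), and its neutrophil call was lost without LP neutrophil library III (0.0511, range 0.000136 to 0.0818). Rhbdf2, a partner of ADAM17, was lower by 0.78 ± 0.15 and 1.03 ± 0.15 in MHCIIhi and MHCIIlow macrophages. That made 1 higher and 2 lower in each macrophage population and 1 and 1 in neutrophils, with medians of -0.37, -0.34 and -0.07, and 0 calls in monocytes (median 0.27), where 1 gene had an unadjusted p under 0.05 and voom called 0. Over all genes 19.5% and 23.3% were called in the macrophage populations, 32.2% in neutrophils and 9.29% in monocytes, with medians of 0, 0.06, -0.12 and 0.

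Of 12 transcription factors known to act on the receptor genes, 11 were tested, and 2 were higher and 1 lower in tumour in MHCIIhi macrophages, 1 and 2 in MHCIIlow macrophages, 3 and 1 in monocytes and 1 and 3 in neutrophils, beside 19.5%, 23.3%, 9.29% and 32.2% of all genes called in either direction. Medians were 0.24, 0.26, 0.11 and -0.69, beside 0, 0.06, 0 and -0.12 over all genes. Ets2 was higher by 0.68 ± 0.16 in MHCIIhi macrophages and by 0.69 ± 0.16 in neutrophils, where the call was lost with library sizes as summed reads. Spi1, which encodes PU.1, the main regulator of Csf1r, was lower by 1.15 ± 0.38 in tumour MHCIIhi macrophages (limma, adjusted p 0.0407, range 0.00562 to 0.220), a call lost without LP MHCIIhi library III (0.0791), IV (0.104) or V (0.0946) or tumour MHCIIhi library VII (-0.80, 0.220). Maf was higher there by 1.37 ± 0.41 (0.0204, range 3.82e-05 to 0.0877), which was lost without LP MHCIIhi library IV (0.0877) or tumour MHCIIhi library I (0.0576) or VII (0.0867). In monocytes and neutrophils Maf was lower, by 2.67 ± 0.41 and 1.79 ± 0.41, and the neutrophil call (adjusted p 0.00214, range 0.000186 to 0.255) was lost on the log2(RPKM + 1) scale (-0.30), under quantile normalization, with only the libraries compared and with voom. Runx1 was lower by 1.21 ± 0.16 in MHCIIlow macrophages and higher by 0.80 ± 0.16 in monocytes, Klf4 lower by 1.85 ± 0.35 in MHCIIlow macrophages and Fli1 higher by 0.97 ± 0.17 in monocytes. The Irf8 call in MHCIIlow macrophages (0.55 ± 0.19, adjusted p 0.047) was lost without any 1 of the 6 libraries, at 0.0503 to 0.164. Cebpa differed by -5.11 ± 1.08 in neutrophils, with an SD of 3.95 among the 3 tumour libraries, and by -2.87 without tumour library II and -6.63 without I. It was lost when only the 6 libraries compared were fitted.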

How the data were processed

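The authors aligned paired reads of 51 bases from modified SMARTSeq v2 libraries with STAR 2.3 to GRCm38, used featureCounts 1.5 for gene counts, and deposited values as log2 RPKM from edgeR. The libraries had no molecular identifiers. The deposited log2 values carry a prior count of 0.25 reads, which was read from the values, as were whole reads. Exactly 1 gene length gave whole numbers in every library for each of 17301 genes (100% of 415224 values, tolerance 0.001 reads). These reads gave the depth (12.8 M to 41.7 M on genes per library, median 26.4 M), the floor of 3 reads and some alternatives. The library sizes behind the deposited values were 0.466 to 0.682 times the summed reads in neutrophils and 0.98 to 1.51 times in other libraries. All 24 columns were matched to their samples by name.

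Genes were taken by Ensembl identifier without version through GENCODE M21 symbols. The genes and lists described here were chosen with earlier results of these data known. limma 3.58.1 (R 4.3.3) was fitted with trend to the deposited log2 RPKM of 24 libraries, 1 mean per group, for the 12878 genes that reached a group mean of 1 RPKM, over 15 comparisons. p-values were adjusted by Benjamini-Hochberg within each comparison, with a threshold of 0.05. The code was tested on simulated data. Errors are SE for differences and SD for groups, and intervals are 95%. All 7 genes and the 8 related ligands and receptors in the table were named, and of each other list the 2 largest rises and falls among called genes. The 3 most alike profiles were named for each of the 7 genes, except 1 that is not reported here.

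The labels give donor numbers, which were taken as pools shared within a tissue, with no other statement that they are. Over 29 pairs, deviations from group means correlated by -0.066 to 0.255 (median 0.017, 5 pairs over 0.1), with a duplicate correlation of 0.048. On the labels' number alone, the block was fitted within a tissue, as a random and as a fixed term, and tumour and LP could not be paired. Other alternatives were log2(RPKM + 1), no filter, a mean of at least 5 RPKM, quantile normalization, median centring, only the libraries compared, array weights, voom on recovered reads and leaving out each library. Library sizes as summed reads were added, chosen after seeing the data. Of the related genes listed, Csf2, Flt3l, Il3 and Il5ra were not analysed here. Stretches of 51 bases were compared between annotated transcripts of all genes.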

Additional observations from a re-analysis of the deposited data

Results flagged for a closer look

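For 4 results the tumour effect differed between populations by limma's test of the difference itself. For Csf2rb the effect in MHCIIlow macrophages minus that in MHCIIhi macrophages was 2.17 on the log2 scale (adjusted p 0.00422), and for Csf2rb2 it was 1.79 (adjusted p 0.00927). For Csf1 the effect in neutrophils minus that in monocytes was 2.05 (adjusted p 0.0318), and the mean effect in both macrophage populations minus that in monocytes was 3.33 (adjusted p 0.000214). Single libraries that stand apart were not tested, and LP MHCIIlow library II, the lowest for both beta chain genes, is given as values only.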

How the results depend on the processing

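Of 105 results (7 genes in 15 comparisons), 51 were called. Of these, 32 were called in every alternative and 19 lost the call in at least 1. Of 54 uncalled results, 20 were called in at least 1 alternative. Of 60 called results between tumour and LP of named listed genes, 38 were called in every alternative and 22 lost the call in at least 1, with 0 changes of sign. Under quantile normalization 2 called results changed sign, Csf2rb in LP neutrophils against monocytes (-0.59) and Csf2ra in tumour neutrophils against monocytes (-0.19), and the cause was not tested.

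Counts of called genes among the 7 that moved by more than 1.5 times, or to or from 0, are given here, and smaller moves are not listed. For tumour against LP MHCIIlow macrophages (4), fitting only the libraries compared gave 2 and leaving out 1 library 2 to 4 (2 without tumour library V). For monocytes (0), log2(RPKM + 1) and voom gave 2, and a mean of at least 5 RPKM, median centring, only the libraries compared and array weights gave 1. For neutrophils (2), log2(RPKM + 1), a mean of at least 5 RPKM and voom gave 1, array weights 0, summed reads as library sizes 5, and leaving out 1 library 0 to 1. For MHCIIlow against MHCIIhi tumour macrophages (1), only the libraries compared and summed reads gave 0, and array weights, voom and the replicate block as a fixed term gave 2, with 0 to 1 when 1 library was left out. For the same populations in the LP (5), the replicate block as a fixed term gave 3 and leaving out 1 library 3 to 4. For LP MHCIIhi macrophages against monocytes (3), quantile normalization gave 1 and leaving out 1 library 1 to 2. For the tumour effect in MHCIIlow minus MHCIIhi macrophages (2), only the libraries compared gave 0 and leaving out 1 library 2 to 3. For neutrophils minus monocytes (1), log2(RPKM + 1) and summed reads gave 2, quantile normalization, only the libraries compared, array weights and voom 0, and leaving out 1 library 0 to 2. For both macrophages minus monocytes (1), log2(RPKM + 1), quantile normalization and summed reads gave 2. Apart from the values given beside the results, the replicate block changed no other call among the 7 genes.

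Neutrophils are the libraries on which scaling bears most, with deposited sizes of 0.466 to 0.682 times their summed reads. Library sizes as summed reads took the median difference of all genes from -0.12 to -0.57 for tumour against LP neutrophils. For neutrophils against monocytes it went from -0.24 to -1.05 in the LP and from -0.36 to -1.45 in tumour. For the difference of their tumour effects it went from -0.12 to -0.41. In the comparisons without neutrophils it lay between -0.03 and 0.06 before and between -0.16 and 0.40 after. With 3 pools per group the design limits precision, and genes near 0 reads, such as Flt3, Kitl and Il5, have changes that depend on the prior count. Intervals cover the spread of pools only.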
